A study of Homo sapiens with 2 samples.

Results

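Polyamine metabolism was examined through 10 genes picked by symbol from the 39720 gene symbols of an RNA sequencing table of A549, a cell line grown from a human lung adenocarcinoma. They comprise 4 enzymes of synthesis (ODC1, AMD1, SRM and SMS), 2 antizymes and their inhibitor (OAZ1, OAZ2 and AZIN1) and 3 enzymes of breakdown (SAT1, SMOX and PAOX), and all 10 were found. They were chosen as a pathway with earlier results of these data known, so their values below are a description and carry no test. The libraries compared are cells infected with lentivirus for a short hairpin RNA against DEPDC1B (shDEPDC1B) and cells infected with lentivirus for a negative control hairpin (shNC), both with 5 µg/mL polybrene and both harvested on day 2. Both therefore carry a lentiviral hairpin, and an uninfected culture is not analysed here. Each group is 1 library and the labels name 1 hairpin against DEPDC1B, so no difference has a replicate check and 2 libraries are compared, not 2 conditions.

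Putrescine, spermidine and spermine are small positively charged molecules that bind RNA and DNA and that growing cells need for translation. Ornithine decarboxylase (ODC1) makes putrescine, S-adenosylmethionine decarboxylase (AMD1) supplies the aminopropyl groups, and the synthases SRM and SMS add them to give spermidine and then spermine. Antizymes bind ornithine decarboxylase and lead it to the proteasome, whereas the antizyme inhibitor AZIN1, a relative of the enzyme without its activity, sequesters antizyme. In breakdown, SAT1 acetylates spermidine and spermine, PAOX oxidises the acetylated forms, and SMOX oxidises spermine directly. Lung carcinoma cells, like other dividing cells, make and take up polyamines.

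The libraries held 18862371 counts in shDEPDC1B and 18647290 in shNC. DEPDC1B itself had 39 counts in shDEPDC1B and 329 in shNC, which left 12.5% of the shNC level. The 8 A549 and lung carcinoma markers, such as KRT8 and AKR1B10, summed to 34995 CPM (counts relative to the scaled library size) in shDEPDC1B and 31230 CPM in shNC. That sum was carried by the most abundant of the 8. The 6 leukocyte markers summed to 37.3 CPM in shDEPDC1B and 41.8 CPM in shNC, nearly all of it CD68 and CD14. Some of the 8 A549 and lung carcinoma markers were below CD68 in both libraries. The leukocyte marker PTPRC was at 2 counts in shDEPDC1B and 0 in shNC, and CD3E at 0 in both. The 6 fibroblast markers summed to 12.2 CPM in shDEPDC1B and 10.6 CPM in shNC. Most of that was COL1A1 and COL3A1, and DCN was at 0 in both. The 5 endothelial markers summed to 0.548 CPM in shDEPDC1B and 0.726 CPM in shNC, with KDR at 0 in both. The part of these markers in the results was not tested.

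Sequences are shown for the 2 antizyme messages and for the promoters of ODC1 and SAT1. The antizyme messages are read with a +1 frameshift that polyamines stimulate, and GENCODE 29 marks it by leaving 1 base out of the coding sequence, at position 2271443 of chromosome 19 for OAZ1 and 64691515 of chromosome 15 for OAZ2 (GRCh38). The 29 bases around it are given 5′ to 3′ from transcripts that keep the base, with the stop codon that the frameshift passes in capitals.
OAZ1: ctcggtggtgctccTGAtgcccctcaccc
OAZ2: ctctgtggtgctccTGAtgcccctcaccc
These 2 stretches have 28 of 29 bases in common. The stop codon lies after 68 codons in OAZ1 and after 32 in OAZ2. Counts of the message do not measure frameshifting.

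For ODC1 and SAT1, the members farthest from equality, the promoter windows of RefSeq (GRCh38.p14, 250 bases before to 50 after a start site) were read, and 7 of the 10 genes had such a window. ODC1 has a window at each of 2 start sites, on the minus strand at chr2:10448278-10448577 (start site 1) and chr2:10447963-10448262 (start site 2), and SAT1 has 1 on the plus strand at chrX:23782923-23783222. Capitals mark matches on either strand to a TATA box (TATAAA), a GC box (GGGCGG), an E-box (CACGTG), a cAMP response element (TGACGTCA), an antioxidant response element core (TGACNNNGC) or a CCAAT box (CCAAT), motifs that do not contain each other.
ODC1 start site 1: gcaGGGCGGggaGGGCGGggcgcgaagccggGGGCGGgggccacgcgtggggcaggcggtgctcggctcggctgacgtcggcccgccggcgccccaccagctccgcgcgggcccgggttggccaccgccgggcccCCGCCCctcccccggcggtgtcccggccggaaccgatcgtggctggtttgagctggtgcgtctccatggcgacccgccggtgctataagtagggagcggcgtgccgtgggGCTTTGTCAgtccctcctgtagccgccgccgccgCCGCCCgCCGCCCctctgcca
ODC1 start site 2: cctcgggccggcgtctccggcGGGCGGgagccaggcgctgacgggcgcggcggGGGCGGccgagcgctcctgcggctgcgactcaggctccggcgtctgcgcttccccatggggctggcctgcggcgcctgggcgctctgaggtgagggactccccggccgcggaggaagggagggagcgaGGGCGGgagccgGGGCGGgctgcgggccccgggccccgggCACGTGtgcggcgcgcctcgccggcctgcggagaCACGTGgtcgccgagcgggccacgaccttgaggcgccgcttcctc
SAT1: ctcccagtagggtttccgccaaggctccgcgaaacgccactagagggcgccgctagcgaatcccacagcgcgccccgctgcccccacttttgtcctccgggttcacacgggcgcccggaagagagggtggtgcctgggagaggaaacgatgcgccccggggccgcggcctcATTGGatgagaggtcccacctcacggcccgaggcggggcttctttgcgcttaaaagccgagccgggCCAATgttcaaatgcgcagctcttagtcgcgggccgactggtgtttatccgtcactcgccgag
The window of ODC1 start site 2 holds 2 E-boxes, the letters bound by MYC and MAX, and an E-box occurs in 7.26% of 35116 RefSeq windows of this length. GC boxes number 6 at ODC1 start site 1 and 4 at start site 2, and 45.0% of all windows have at least 1. SAT1 has 2 CCAAT boxes, found in 34.6% of windows, and no GC box or E-box in these letters. ODC1 start site 1 has 1 antioxidant response element core (13.3% of windows). The other members with a window all have at least 1 GC box. Among them SRM, whose ratio was above 1 as measured, has 1 E-box, and SRM, OAZ1, SMS and AMD1 have CCAAT boxes. The shares are of windows with at least 1 match, and they are not matched for GC content. That was 79.0% at ODC1 start site 1, 80.7% at start site 2 and 66.0% at SAT1, so no rarity is read from them. Such matches describe the letters and do not show binding.

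Counts were scaled with TMM factors, and a gene was called higher or lower when its ratio, shDEPDC1B over shNC, was at least 1.5-fold with an exact 95% counting interval that excludes equality. Intervals are in square brackets and cover counting error only. Genes were assessed when either library held 30 counts or more. Of the 13850 assessed genes, 19.6% were called lower and 19.2% higher, and lower genes made up 50.4% of the calls, or 61.2% with the libraries scaled by their totals. Of the 10 polyamine genes, 3 were called lower (ODC1, SAT1 and AZIN1), none higher and 7 neither, and all 10 had enough counts to be assessed. Since the genes were chosen with these ratios known, nothing is read from that count.

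**Figure D1:**
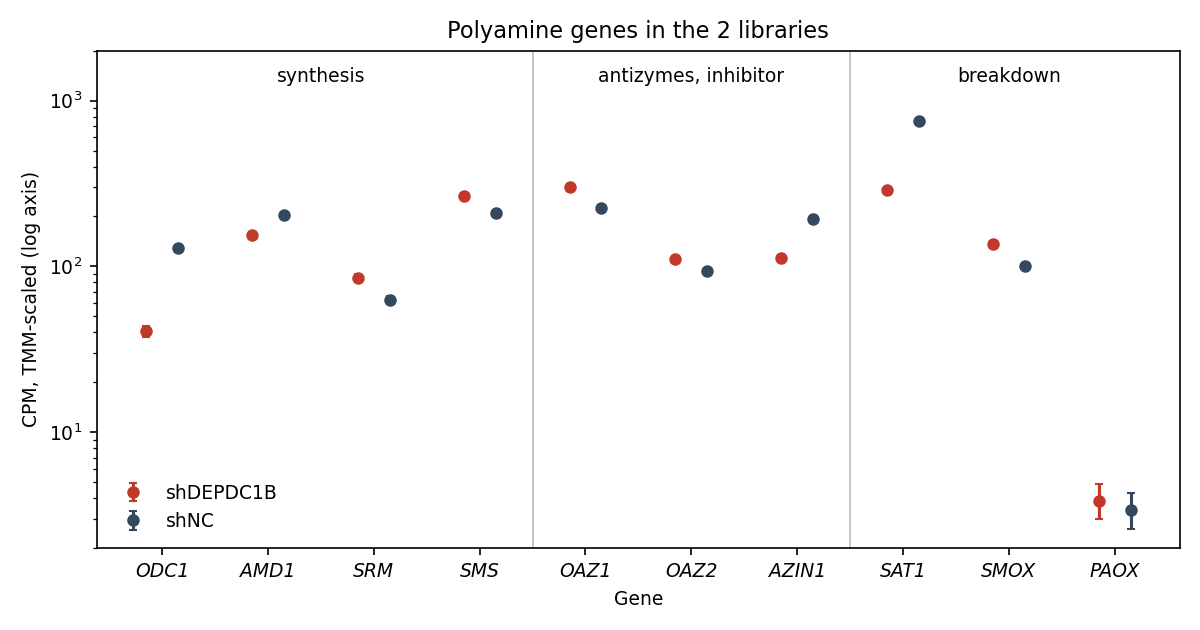
TMM-scaled CPM of the 10 polyamine genes (log axis) in the shDEPDC1B library (red, left of each pair) and the shNC library (dark, right), with exact 95% counting intervals that are mostly smaller than the points. ODC1 stood at 40.5 CPM in shDEPDC1B and 129.7 CPM in shNC, and SAT1 at 290.6 CPM in shDEPDC1B and 753.1 CPM in shNC.

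Among the enzymes of synthesis, ODC1 (chromosome 2, 10439968 to 10448504, minus strand, GRCh38) had 738 counts in shDEPDC1B and 2500 in shNC. That is 40.5 CPM in shDEPDC1B and 129.7 CPM in shNC. The log2 ratio was -1.68 [-1.80, -1.56], or 31.2% of the shNC level, and ODC1 was the gene of rank 310 from the lowest ratio among the 13850. Fewer cells that make a transcript and less of it per cell cannot be told apart in such bulk RNA.

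The other 3 enzymes of synthesis stayed within 1.5-fold. AMD1, which supplies the aminopropyl donor, had 2820 counts in shDEPDC1B and 3928 in shNC, a log2 ratio of -0.40 [-0.47, -0.33]. SRM, which makes spermidine, had 1559 counts in shDEPDC1B and 1212 in shNC, a log2 ratio of 0.44 [0.33, 0.55]. SMS, which makes spermine, had 4881 counts in shDEPDC1B and 4073 in shNC, a log2 ratio of 0.34 [0.28, 0.40]. The pair of decarboxylases therefore had ratios below 1 and the pair of aminopropyl synthases ratios above 1, each with an interval that excludes equality. The sign of SRM turned, however, after a fit on transcript length and GC content, as given below. Reads of SMS are the most open to sharing with other genes among these 4, since 26.9% of the 50-base words of its longest coding transcript also occur in transcripts of 3 other annotated genes, against 5.16% for AMD1 and 0 for ODC1 and SRM.

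Both antizymes had more counts in shDEPDC1B, within 1.5-fold. OAZ1, the widely expressed antizyme, had 5464 counts in shDEPDC1B and 4337 in shNC, a log2 ratio of 0.41 [0.36, 0.47]. OAZ2 had 2020 counts in shDEPDC1B and 1808 in shNC, a log2 ratio of 0.24 [0.15, 0.33]. Another annotated gene on the same strand overlaps OAZ1 and holds 15.6% of its 50-base words, so some OAZ1 reads could have been assigned elsewhere.

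AZIN1, the antizyme inhibitor, fell to 2037 counts in shDEPDC1B, against 3742 in shNC. Its CPM was 111.7 in shDEPDC1B and 194.1 in shNC, a log2 ratio of -0.80 [-0.88, -0.72] at rank 1868 from the lowest. The antisense gene AZIN1-AS1, which overlaps it, had 30 counts in shDEPDC1B and 13 in shNC. Nothing in the sources used here says whether strand was kept, so reads of this pair could be mixed, although the antisense counts are few beside those of AZIN1.

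Among the enzymes of breakdown, SAT1 (chromosome X, 23783173 to 23786226, plus strand, GRCh38) fell to 5301 counts in shDEPDC1B, against 14520 in shNC. Its CPM was 290.6 in shDEPDC1B and 753.1 in shNC. The log2 ratio was -1.37 [-1.42, -1.33], or 38.6% of the shNC level, at rank 559 from the lowest.

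Neither oxidase was called higher or lower. SMOX had 2500 counts in shDEPDC1B and 1928 in shNC, a log2 ratio of 0.45 [0.37, 0.54]. PAOX had 70 counts in shDEPDC1B and 65 in shNC, a log2 ratio of 0.19 [-0.32, 0.70], so counts this low show no difference in either direction. PAOX was the only member whose interval included equality, whereas intervals excluded equality in 73.8% of all assessed genes. Summed per kilobase of the longest coding transcript, the 3 breakdown genes stood at 333.9 CPM per kilobase in shDEPDC1B and 752.0 in shNC, a difference carried by SAT1. On that scale the 4 synthesis genes summed to 273.4 in shDEPDC1B and 272.8 in shNC, with ODC1 and AMD1 lower and SRM and SMS higher. Without division by length their summed counts had a log2 ratio of -0.15 [-0.19, -0.11]. The antizymes and inhibitor summed to 341.8 per kilobase in shDEPDC1B and 285.5 in shNC.

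**Figure D2:**
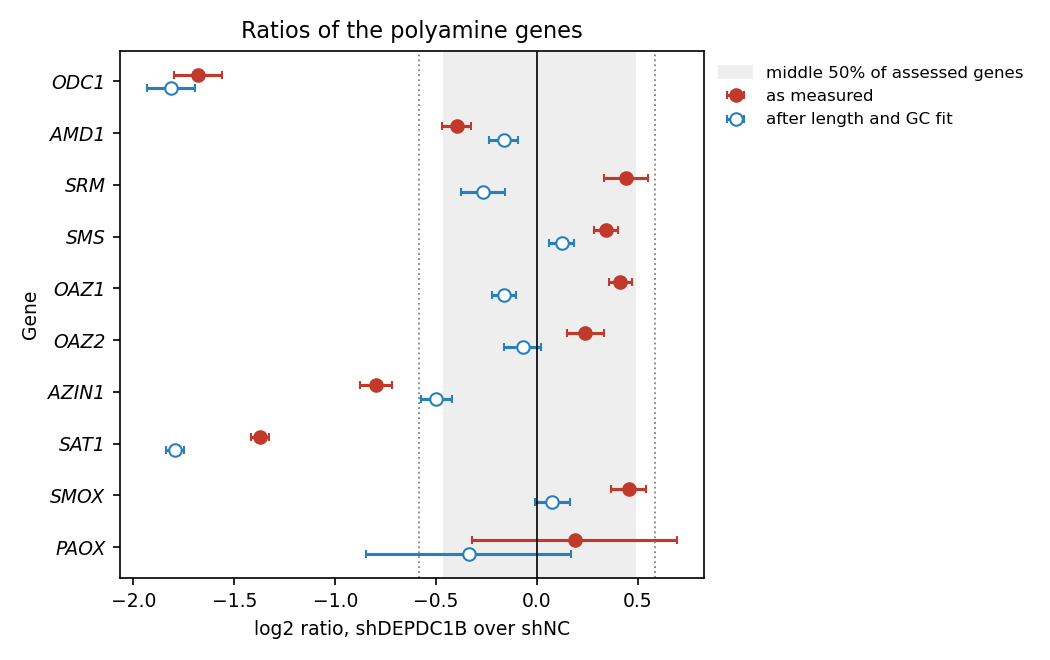
Log2 ratio, shDEPDC1B over shNC, of each polyamine gene as measured (filled) and after a linear fit on transcript length and GC content (open), with 95% counting intervals. Grey marks the middle 50% of assessed genes as measured, not after the fit, and dotted lines mark 1.5-fold. ODC1 (-1.68) and SAT1 (-1.37) lie far left of the grey band under both, and SRM, OAZ1, OAZ2 and PAOX cross 0 after the fit.

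Ratios in this pair of libraries depended on transcript length, and the members differ in length from 1065 nucleotides (SAT1) to 4721 (AZIN1). Coding genes were put in 10 equal bins by length. The median log2 ratio was 0.58 in the shortest bin (177 to 1504 nucleotides) and -0.63 in the longest bin (7664 to 109224 nucleotides). ODC1 and SAT1 stood opposite to that trend. Their transcripts of 2653 and 1065 nucleotides lie in bins with medians of 0.21 and 0.58, where 3 of 1227 genes had a lower ratio than ODC1 and 8 of 1228 a lower ratio than SAT1. After a linear fit on length and GC content over 12265 genes, ODC1 was at -1.81 [-1.93, -1.70] and SAT1 at -1.79 [-1.84, -1.75].

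The other members stood less far out in their length bins than ODC1 and SAT1. AZIN1 was at -0.50 [-0.58, -0.42] after the fit on length and GC content and was no longer past 1.5-fold. In its bin, with a median of -0.16, 137 of the 1227 genes had a lower ratio. AMD1 was at -0.17 after the fit, but its bin had a median of 0.09, and 217 of 1228 genes there had a lower ratio. SRM went to -0.27 [-0.38, -0.16] and OAZ1 to -0.16 [-0.22, -0.11], so their sign turned, and OAZ2 (-0.07) also changed sign, with an interval that includes equality. SMS stayed above 0 at 0.12 [0.06, 0.18], while SMOX was at 0.08 [-0.01, 0.16] and PAOX at -0.34 [-0.85, 0.17]. By this fit 8 of the 10 genes were below 0 and 2 above, against 4 below and 6 above as measured.

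**Figure D3:**
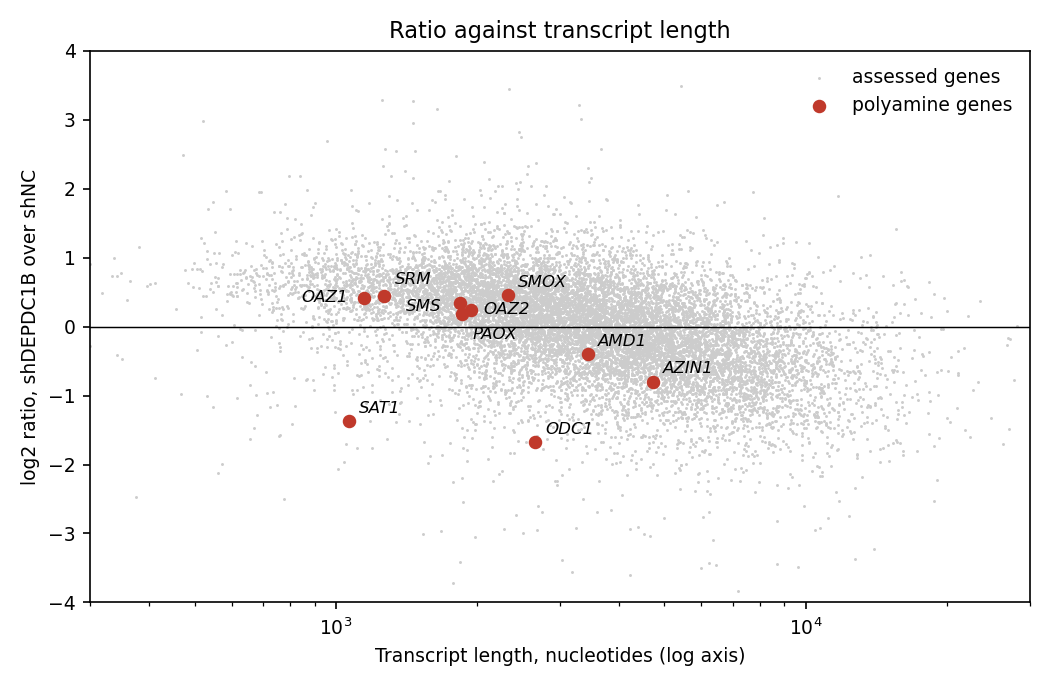
Log2 ratio, shDEPDC1B over shNC, against the length of the longest coding transcript (log axis) for the assessed genes with an annotated length (grey; 29 of 12997 lie outside the axes) and the polyamine genes (red). SAT1 and ODC1 sit below the cloud at their lengths of 1065 and 2653 nucleotides, and the other 8 lie within it.

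Levels can be compared between genes only per length, here as CPM per kilobase of the longest coding transcript. In shDEPDC1B the order was SAT1 (272.8), OAZ1 (260.9), SMS (145.6), SRM (67.5), SMOX (59.0), OAZ2 (57.3), AMD1 (45.0), AZIN1 (23.7), ODC1 (15.2) and PAOX (2.07). The counting intervals of SAT1 and OAZ1 overlapped there, as did those of SMOX and OAZ2. In shNC the order was SAT1 (707.1), OAZ1 (195.9), SMS (115.0), AMD1 (59.3), SRM (49.7), ODC1 (48.9), OAZ2 (48.5), SMOX (43.1), AZIN1 (41.1) and PAOX (1.81). There the neighbours SRM, ODC1 and OAZ2 overlapped, as did SMOX and AZIN1, while SAT1 stood clear of OAZ1. On this scale SAT1 made up 28.7% of the summed level of the 10 genes in shDEPDC1B and 54.0% in shNC. The place of ODC1 was 9 in shDEPDC1B and 6 in shNC.

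Ratios between members within a library do not depend on how the libraries are scaled, and 11 of the 45 pairs were picked by role, with the ratios of the members already known. They set ODC1 against both antizymes, AZIN1 and SAT1, the antizymes against AZIN1, and enzymes of synthesis and breakdown against each other. There were 0.135 ODC1 counts for each OAZ1 count in shDEPDC1B and 0.576 in shNC, a log2 difference of -2.09 [-2.23, -1.96]. ODC1 against OAZ2 gave 0.365 in shDEPDC1B and 1.38 in shNC, a log2 difference of -1.92 [-2.07, -1.77]. After the fit on length and GC content these log2 differences were -1.65 against OAZ1 and -1.74 against OAZ2. The message of the enzyme was therefore lower relative to both antizyme messages in shDEPDC1B than in shNC.

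The inhibitor showed the same direction relative to antizyme. OAZ1 counts per AZIN1 count were 2.68 in shDEPDC1B and 1.16 in shNC, a log2 difference of 1.21 [1.11, 1.31], which the fit on length and GC content brought to 0.33. For OAZ2 the values were 0.992 in shDEPDC1B and 0.483 in shNC, with a log2 difference of 1.04 [0.92, 1.16], or 0.43 after the fit. ODC1 counts per AZIN1 count, a ratio of relatives, were 0.362 in shDEPDC1B and 0.668 in shNC, a log2 difference of -0.88 [-1.03, -0.74]. That difference was -1.32 after the fit.

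ODC1 and SAT1, which catalyse the regulated steps of synthesis and of breakdown, were both lower, and their ratio had the smallest log2 difference of the pairs with ODC1. There were 0.139 ODC1 counts per SAT1 count in shDEPDC1B and 0.172 in shNC, a log2 difference of -0.31 [-0.44, -0.18] that was -0.02 after the fit. SAT1 counts per PAOX count were 75.7 in shDEPDC1B and 223.4 in shNC, a log2 difference of -1.56 [-2.07, -1.05]. SRM per SMS was 0.319 in shDEPDC1B and 0.298 in shNC, with an interval that includes equality (0.10 [-0.02, 0.23]). After the fit its log2 difference was -0.39. SMS per SMOX was 1.95 in shDEPDC1B and 2.11 in shNC, a log2 difference of -0.11 [-0.22, -0.01] that turned to 0.05 after the fit. AMD1 per SMS was 0.578 in shDEPDC1B and 0.964 in shNC, at -0.74 [-0.83, -0.65], or -0.29 after the fit, and AMD1 per SRM was 1.81 in shDEPDC1B and 3.24 in shNC, at -0.84 [-0.97, -0.71], turning to 0.10 after the fit.

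The genes around this pathway were taken from 6 lists of 55 genes, of which 44 were assessed. Of these, 11 were called higher and 6 lower, where 19.2% of all assessed genes were called higher and 19.6% lower. The balance depended on the setting. It was 6 higher and 9 lower with library totals, 5 and 7 after the fit on length and GC content, and 3 and 4 at 2-fold. Counts over all assessed genes moved as well, to 2029 higher and 3207 lower with library totals. They were 1504 and 1565 after the fit and 812 and 1243 at 2-fold, so nothing particular to the lists is read from these shifts. The median log2 ratio was 0.10, against 0.04 over all assessed genes. In the supply of arginine, ornithine and proline, 2 of 9 assessed genes were lower and 2 higher (median 0.14). SLC7A1, the main arginine importer of many cells, had 352 counts in shDEPDC1B and 1605 in shNC, a log2 ratio of -2.11 [-2.28, -1.94]. That was lower than the ratio of ODC1 as measured. After the fit on length and GC content SLC7A1 was at -1.80 and ODC1 at -1.81. GATM, which uses arginine for creatine, was at -0.82 [-1.23, -0.41]. Higher were ARG2, the mitochondrial arginase that makes ornithine, at 0.63 [0.21, 1.07], and PYCR1, of proline synthesis, at 0.73 [0.61, 0.86], but after the fit they were at 0.45 and 0.25, neither past 1.5-fold. SLC7A2 went the other way, from 0.17 [-0.16, 0.50] as measured to 0.72 after the fit, past 1.5-fold. Ornithine aminotransferase (OAT) was at -0.20 and the mitochondrial ornithine carrier SLC25A15 at -0.13, neither past 1.5-fold, while ARG1 had 0 counts in shDEPDC1B and 1 in shNC, and OTC and SLC7A3 had 0 in both.

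The methionine list had 4 of 11 genes higher and 1 lower (median 0.09). It covers S-adenosylmethionine, the source of the aminopropyl groups, and the salvage of methylthioadenosine, the product left by SRM and SMS. GOT1, an aspartate aminotransferase, was at 1.29 [1.18, 1.39] with 2284 counts in shDEPDC1B and 990 in shNC. The salvage enzyme APIP was at 1.14 [0.98, 1.30] with 1005 counts in shDEPDC1B and 483 in shNC, and ADI1, another, at 0.64, uncertain because its deposited values are not whole hundredths as most are. MAT1A, the liver form of the S-adenosylmethionine synthetase, was at 0.92 [0.07, 1.81] on 34 counts in shDEPDC1B and 19 in shNC. The form of most other tissues, MAT2A, was at 0.04 [-0.01, 0.09], with 6354 counts in shDEPDC1B and 6516 in shNC. Lower was MTR, methionine synthase, at -1.47 [-1.63, -1.31], with a transcript of 10529 nucleotides and -0.85 after the fit.

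In the hypusine pathway, in which spermidine is the donor for the modification of the translation factor EIF5A, 1 of 4 genes was higher and none lower (median 0.50). DHPS, deoxyhypusine synthase, was at 0.71 [0.56, 0.86], and 0.15 after the fit. EIF5A had 19246 counts in shDEPDC1B and 13593 in shNC, a log2 ratio of 0.58 [0.55, 0.61] just under 1.5-fold, and 0.07 after the fit. Of 8 assessed genes of polyamine transport, 2 were lower and 1 higher (median -0.19). The transport ATPase ATP13A3 was at -1.20 [-1.29, -1.12] with 1573 counts in shDEPDC1B and 3823 in shNC. After the fit ATP13A3 was at -0.58, just short of 1.5-fold. SLC22A3, an organic cation transporter, was at -0.92 [-1.01, -0.82], and -0.90 after the fit. ATP13A2, which exports polyamines from lysosomes, was at 0.64 [0.48, 0.80], and at 0.45 after the fit, no longer past 1.5-fold. GPC1 was within 1.5-fold as measured, at -0.54 [-0.62, -0.47], and past it after the fit, at -0.81. SLC22A16 had 0 counts in both libraries, SLC22A2 had 0 in shDEPDC1B and 1 in shNC, and ATP13A4 had 4 in shDEPDC1B and 3 in shNC.

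Among relatives of the members, 1 of 3 assessed genes was higher and none lower (median 0.32). SAT2, a relative of SAT1, was at 0.61 [0.45, 0.78] with 743 counts in shDEPDC1B and 514 in shNC, and at -0.08 after the fit, so that SAT1 and SAT2 differed in direction as measured. AZIN2, the second antizyme inhibitor, had 17 counts in shDEPDC1B and 32 in shNC, too few to give a direction as measured (-0.83 [-1.77, 0.06]). After the fit AZIN2 was at -1.21, on the same few counts. The diamine oxidase gene AOC1 had 0 counts in both libraries and SATL1 had 2 in shDEPDC1B and 0 in shNC.

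Of 9 assessed regulators, 2 were higher and 1 lower (median -0.03). MYC, which is known to drive ODC1 through its E-boxes, had 2333 counts in shDEPDC1B and 2119 in shNC, a log2 ratio of 0.22 [0.13, 0.30], or -0.02 after the fit. Its partner MAX had 787 counts in shDEPDC1B and 357 in shNC, at 1.22 [1.04, 1.40], and 1.16 after the fit. The antagonists of MYC were within 1.5-fold, with MXD1 at -0.19, MXI1 at -0.23 and MNT at -0.13. NFE2L2, which with PMF1 is known to act on SAT1, was at -0.03 [-0.11, 0.05], and PMF1 at 0.95 [0.80, 1.10], or 0.30 after the fit. The PMF1 value is uncertain, since reads may be divided with the read-through gene PMF1-BGLAP, at 63 counts in shDEPDC1B and 34 in shNC. HIF1A, the hypoxia-inducible subunit, was at -1.24 [-1.28, -1.19], with 5336 counts in shDEPDC1B and 13285 in shNC, and -0.91 after the fit. MYCN had 1 count in shDEPDC1B and 2 in shNC.

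**Figure D4:**
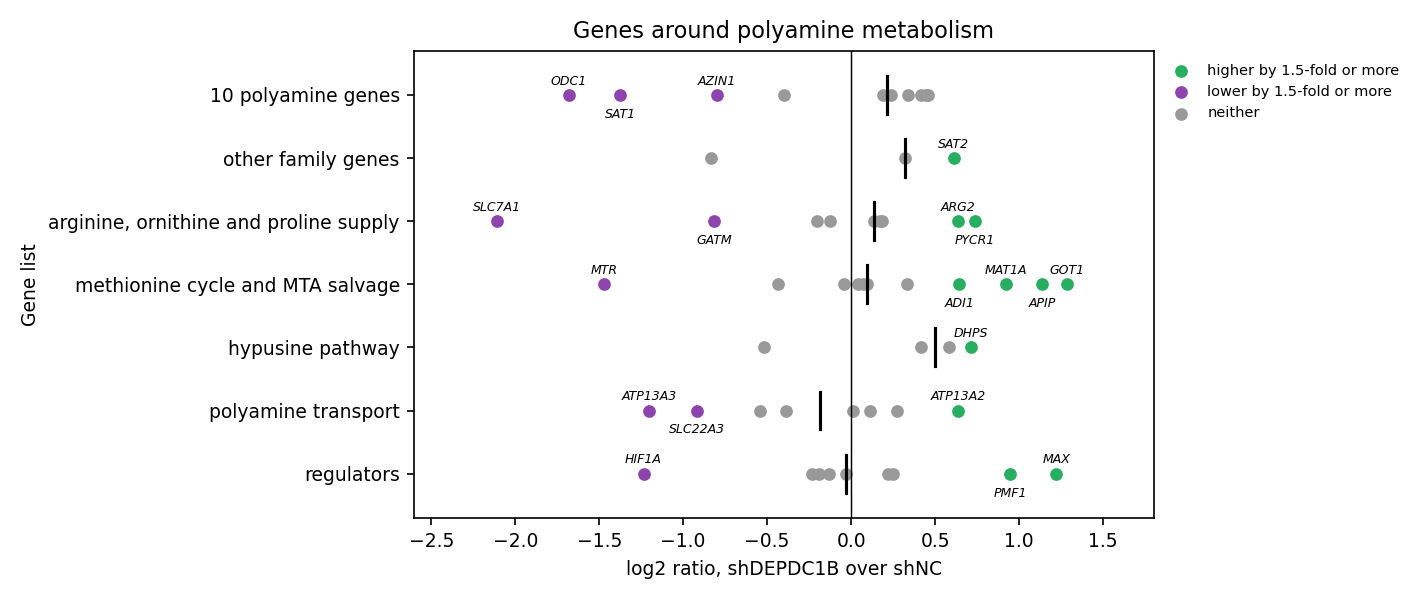
Log2 ratio, shDEPDC1B over shNC, of each assessed gene in the 10 polyamine genes and in 6 lists around them, with list medians as black bars and genes past 1.5-fold coloured and named. The lists for arginine supply, methionine, transport and regulators hold calls in both directions, and SLC7A1 at -2.11 is the lowest gene plotted.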

How the data were processed

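RNA of 1 shDEPDC1B and 1 shNC library of A549 cells was sequenced, and samples were grouped by the treatment label. Per the submitters' processing notes the tools include Bowtie2 and RSEM and the build is hg38; the sources used here name neither versions nor the annotation. The authors deposited estimated counts per gene symbol without depth scaling, and these were rounded for this work. RSEM divides reads that match several genes by a model, and counting intervals leave that error out. TMM factors came from edgeR 4.0.16 in R 4.3.3. A single library per group allows no test, so there are no p-values. Ratios carry exact Clopper-Pearson 95% intervals, and ratios between members carry conditional exact intervals of the odds ratio (SciPy 1.17.1). Intervals cover counting error only. Reads have no molecular identifiers, so copies of 1 molecule count as separate reads and the intervals may be too narrow. Gene positions come from GENCODE 29 (GRCh38), as do length and GC content, read from each gene's longest coding transcript, and 88.6% of assessed genes entered the fit on them, which took up 29.4% of the variance. The scaling, the ratios with their intervals and the calls were tested on simulated counts that held no trend with length. The fit and the ratios between members were not tested in this way.

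Members, lists and thresholds were chosen with earlier results of these data known. Named were the 10 members, DEPDC1B, the pathway genes past 1.5-fold, and those with 0 to 3 counts in both libraries; other pathway genes and markers were named after their values were seen, and 1 marker is not reported here. Alternatives were DESeq2 1.42.0 size factors, library totals, upper-quartile factors, other filters, a 2-fold threshold and the fit on length and GC content.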

Additional observations from a re-analysis of the deposited data

How the results depend on the processing

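ODC1, SAT1 and AZIN1 were the members called lower under DESeq2 size factors, library totals, upper-quartile factors, no filter and a minimum of 100 counts. AZIN1 was not called at 2-fold or after the fit on length and GC content, which left 2 members. Other scalings shifted every log2 ratio by -0.01 (upper quartile), -0.05 (DESeq2) or -0.10 (totals), and no member changed sign under them. After the fit on length and GC content SRM was at -0.27, OAZ1 at -0.16 and OAZ2 at -0.0714, and the within-library ratios of AMD1 to SRM (0.10) and SMS to SMOX (0.0465) turned. PAOX (-0.34) and the ratio of SRM to SMS (-0.39) also changed sign after the fit, but their intervals as measured included equality. That fit gave 1504 higher and 1565 lower genes in all, and 5 higher and 7 lower genes in the lists around the pathway, where 11 were higher and 6 lower as measured. The 2-fold threshold gave 812 higher and 1243 lower genes, and 3 higher and 4 lower in those lists. Library totals gave 2029 higher and 3207 lower genes, and 6 higher and 9 lower in those lists. The fit removes what length and GC content share with the ratio, and the cause of that trend was not tested. Depth limits PAOX, AZIN2 and MAT1A, at under 100 counts in each library. No paired analysis was possible because each group has 1 library, and for the same reason no replicate could be left out.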
